A study of Bos taurus with 6 samples.

Results

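Kruppel-like factors are transcription factors that bind GC-rich and CACCC sequences through zinc fingers at the end of the protein. Of 10 family genes sought (KLF2, KLF3, KLF4, KLF5, KLF6, KLF9, KLF10, KLF11, KLF13 and KLF15), 6 had at least 1 probe set whose platform annotation named that gene alone. These were KLF4, KLF5, KLF10, KLF11, KLF13 and KLF15, with 10 probe sets among the 24016 of the table that are not controls. KLF2, KLF3, KLF6 and KLF9 had no probe set under their symbol and are not described.

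The muscle was the longissimus dorsi, a long muscle of the back, taken from 3 Japanese Black and 3 Holstein steers. Japanese Black cattle are bred for marbled beef, and Holstein cattle mainly for milk. Each steer was represented by 1 Affymetrix array, and all 6 had been given an energy-rich feed, so the breeds were compared under that feed alone. The animals are called Japanese Black 1 to 3 and Holstein 1 to 3, and these numbers only name them.

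In muscle and fat, family members take part in both fuel use and cell fate. KLF15 is induced by glucocorticoids and controls genes of amino acid breakdown and lipid use in muscle. KLF10 and KLF11, also known as TIEG1 and TIEG2, were described as early genes of the response to TGF-beta and mainly repress transcription. KLF4 and KLF5 act in the early steps of fat cell formation, and KLF4 also in the vessel wall. KLF13 is a widely expressed member.

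Of the 6 genes, KLF11 was the one whose signal lay higher in every Japanese Black animal than in every Holstein animal at its brightest probe set, and it did not pass the adjusted threshold. KLF4, KLF5, KLF10, KLF13 and KLF15 overlapped between the breeds at each of their probe sets, and several of them differed more between animals of a breed than between the breeds. Each difference below is the Japanese Black mean of log2(signal + 16) less the Holstein mean, and the added 16 makes the change of a dim probe set look smaller than it is. They were tested with limma, and p-values were adjusted over the 18012 probe sets that passed a filter on dim signal. All 10 probe sets passed that filter.

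No member passed an adjusted p of 0.05, with adjusted p-values between 0.287 and 0.951. Over all probe sets tested 3 passed, which is 0.0167%. At an unadjusted p under 0.05 there were 3 of 10 member probe sets, all 3 of them for KLF11 and all higher in Japanese Black, against 12.6% of all probe sets, and 7.31% in that direction. Counted by gene at the brightest probe set, it was 1 of 6. The breeds did not overlap at 2 of the 10 probe sets, both for KLF11 and higher in Japanese Black, against 19.8% of all probe sets, and 11.0% in that direction. The median difference was 0.20 over the 10 probe sets and 0.0067 over all probe sets tested.

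**Figure D1:**
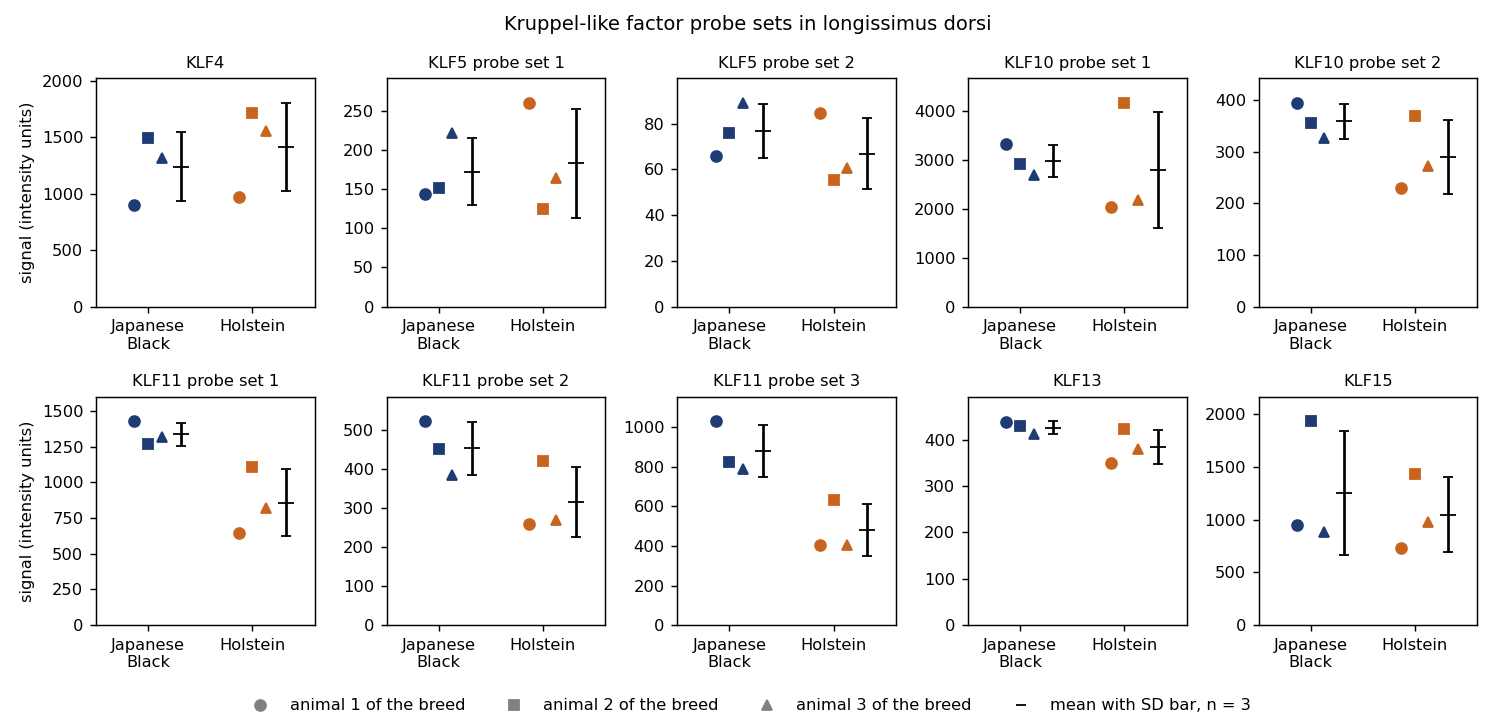
Signal in intensity units (vertical axis, from 0) of each of the 10 Kruppel-like factor probe sets in 3 Japanese Black and 3 Holstein steers; each point is an animal, and the black mark and bar are the mean and SD of 3. At KLF11 probe sets 1 and 3 every Japanese Black animal lies above every Holstein animal, and at the other probe sets the breeds overlap.

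KLF11 was measured by 3 probe sets. At the first (Bt.16916.1.S1_at) the signals were 1427, 1266 and 1315 in Japanese Black 1, 2 and 3 and 646, 1109.9 and 819 in Holstein 1, 2 and 3. The breeds did not overlap, and the narrowest gap was between Japanese Black 2 and Holstein 2. The Japanese Black mean was 1336 ± 82.7 and the Holstein mean 858 ± 235 (SD, n = 3 each). This gave a log2 difference of 0.66 (SE 0.20, 95% interval 0.21 to 1.11), or 1.58-fold, with an unadjusted p of 0.0092 and an adjusted p of 0.321.

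At the third KLF11 probe set (Bt.16916.3.S1_at) the signals were 1031, 827 and 787 in Japanese Black 1, 2 and 3 and 403.5, 634 and 407 in Holstein 1, 2 and 3. Again every Japanese Black animal was above every Holstein animal, with Holstein 2 the nearest to the other breed. The means were 882 ± 131 (SD, n = 3) and 481 ± 132 (SD, n = 3). The difference of 0.87 (SE 0.21, 95% interval 0.40 to 1.35) corresponded to 1.83-fold, with an unadjusted p of 0.00257 and an adjusted p of 0.287.

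The second KLF11 probe set (Bt.16916.2.A1_at) read 523, 452 and 386 in Japanese Black 1, 2 and 3 and 259, 421 and 269 in Holstein 1, 2 and 3. Here the breeds overlapped, since Holstein 2 lay above Japanese Black 3. The difference was 0.52 (SE 0.22, 95% interval 0.026 to 1.02), with an adjusted p of 0.386. The 3 probe sets therefore had the same direction. At each of them Japanese Black 1 was the highest animal, Holstein 1 the lowest, and Holstein 2 the highest of its breed. The ratio of the first to the third was not constant: the first read 1.38 times the third in Japanese Black 1 and 2.01 times in Holstein 3. The second read 0.49 to 0.55 times the third in Japanese Black and 0.64 to 0.66 times in Holstein, without overlap. The ratios of the first to the second and to the third overlapped between the breeds. The cause of these unequal ratios was not tested.

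The KLF11 difference kept its direction when any single animal was left out. At Bt.16916.1.S1_at and Bt.16916.3.S1_at this had to be so, because the breeds did not overlap there. Only at Bt.16916.2.A1_at, where they overlapped, was the direction open. The difference ranged from 0.48 to 0.86 at Bt.16916.1.S1_at, from 0.40 to 0.74 at Bt.16916.2.A1_at and from 0.76 to 1.08 at Bt.16916.3.S1_at. The upper end came each time without Holstein 2, the Holstein animal with the most KLF11 signal, where the adjusted p-values were 0.138, 0.222 and 0.112. The unadjusted p stayed under 0.05 at the first and the third probe set in all 15 alternative settings and at the second in 9 of them. The adjusted p was above 0.05 in all of these fits.

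**Figure D2:**
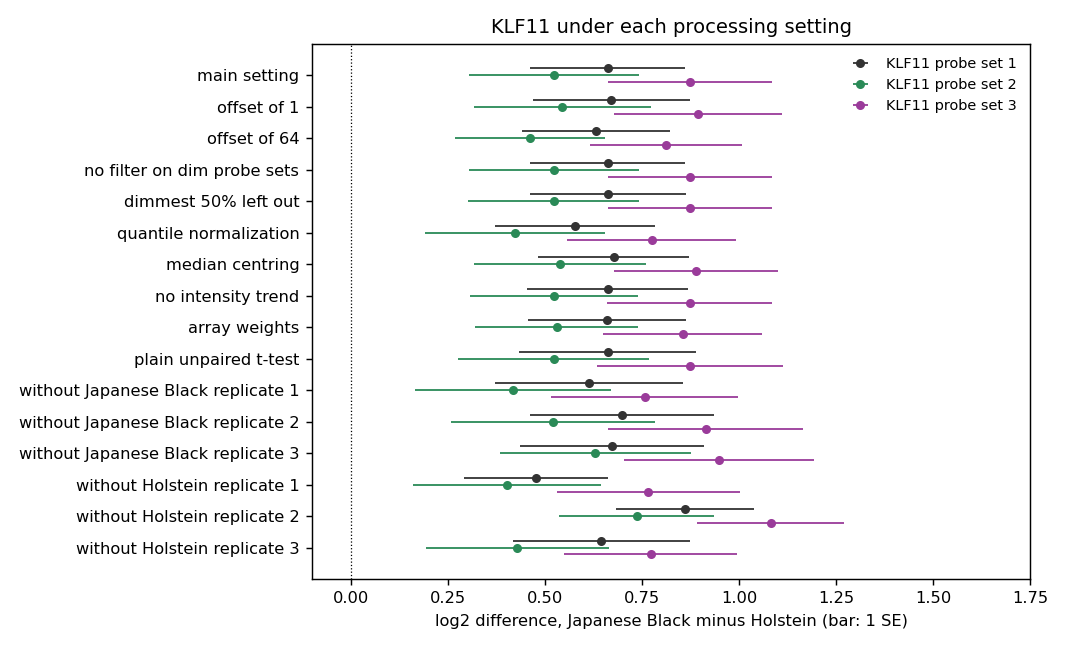
Log2 difference of the 3 KLF11 probe sets, Japanese Black minus Holstein (horizontal axis), under the main setting and 15 alternatives (rows); bars are 1 standard error. Every point lies above 0, from 0.40 to 1.08, and the values are highest without Holstein 2. At Bt.16916.1.S1_at and Bt.16916.3.S1_at the breeds do not overlap, so leaving out 1 animal could not bring a point below 0.

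Some measures of the arrays also separated the breeds. The 3′ to 5′ signal ratio of the actin controls was 1.11 to 1.14 in Japanese Black and 1.003 to 1.07 in Holstein. The signal of the BioC hybridisation control was 752 to 852 in Japanese Black and 873 to 1312 in Holstein. That of the BioD control was 2480 to 2726 in Japanese Black and 2840 to 3873 in Holstein. The 3′ to 5′ ratio of the GAPDH controls overlapped, at 0.86 to 0.93 in Japanese Black and 0.80 to 0.88 in Holstein. So did the BioB control, at 273 to 329 and 319 to 494, and the Cre control, at 10300 to 12029 and 11101 to 12859. The part of these measures in the KLF11 difference was not tested. After quantile normalization, which gives all arrays the same distribution of signals, the KLF11 differences were between 0.42 and 0.78. The limma unadjusted p of the second probe set was then 0.102. That setting was not a test of the control measures.

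KLF10, the closest relative of KLF11, had 2 probe sets. The brighter (Bt.9527.1.A1_at) read 3311, 2916 and 2677 in Japanese Black 1, 2 and 3 and 2035, 4157 and 2181 in Holstein 1, 2 and 3. Holstein 2 was above all other animals, and Holstein 1 and 3 were below all other animals, so the breeds overlapped through 1 steer. The Japanese Black mean was 2968 ± 320 and the Holstein mean 2791 ± 1185 (SD, n = 3 each), a log2 difference of 0.16 (SE 0.25, 95% interval -0.41 to 0.73), with an adjusted p of 0.801.

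The dimmer KLF10 probe set (Bt.9527.2.S1_at) read 395, 356 and 327 in Japanese Black 1, 2 and 3 and 229, 370.1 and 273 in Holstein 1, 2 and 3. Holstein 1 and 3 were again the lowest animals, but Holstein 2 was below Japanese Black 1 here. The difference was 0.31 (SE 0.20, 95% interval -0.14 to 0.77), with an adjusted p of 0.519. Without Holstein 2 the differences of the 2 probe sets were 0.49 and 0.49, with adjusted p-values of 0.252 and 0.316. Without Holstein 1 the brighter one was at -0.027, so its direction depended on a single animal. The brighter probe set read 11.2 times the dimmer in Holstein 2 and 8.004 to 8.87 times in the other animals.

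Genes of the TGF-beta pathway were followed beside KLF10 and KLF11. Of 13 ligands, receptors, SMAD proteins and repressors listed, 9 were tested, and 0 passed an adjusted p of 0.05 in either direction. There were 4 with higher and 5 with lower signal in Japanese Black, with a median difference of -0.11. TGIF1, a repressor of SMAD-driven transcription, read 32.4, 76.4 and 58.04 in Japanese Black and 87.5, 71.8 and 163 in Holstein, a difference of -0.77 (adjusted p 0.383). The signal transducer SMAD2 read 299, 317 and 368 in Japanese Black and 261, 268 and 252 in Holstein, a difference of 0.31 (adjusted p 0.441). The shared partner SMAD4 had a difference of 0.29 and the receptor TGFBR2 one of -0.26.

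**Figure D3:**
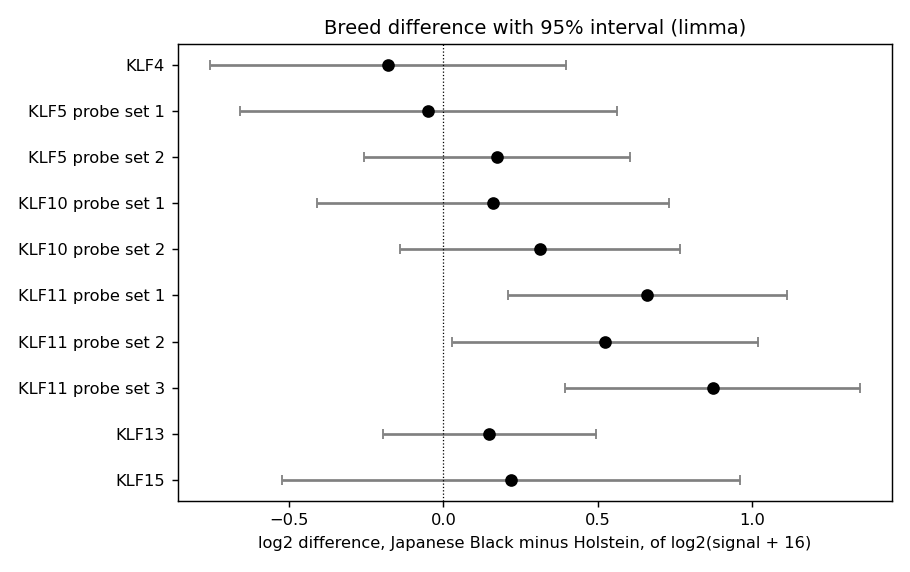
Log2 difference, Japanese Black minus Holstein, of log2(signal + 16) for the 10 Kruppel-like factor probe sets (points) with limma's 95% intervals (bars). The intervals of the 3 KLF11 probe sets lie above 0 before adjustment, from 0.026 at the lowest bound, and those of the other 7 probe sets include 0.

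KLF13 varied least. Its probe set (Bt.20394.1.A1_at) read 437, 429.9 and 412 in Japanese Black 1, 2 and 3 and 349, 423 and 380.3 in Holstein 1, 2 and 3. Holstein 2 lay among the Japanese Black animals, and the highest animal read 1.25 times the lowest, the smallest such ratio among the 10 probe sets. The means were 426 ± 13.3 (SD, n = 3) and 384 ± 36.9 (SD, n = 3), with a difference of 0.15 (SE 0.15, 95% interval -0.20 to 0.49) and an adjusted p of 0.689. From the highest animal to the lowest, the order was the same as at the second KLF11 probe set, with Japanese Black 1 first and Holstein 1 last.

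KLF15 varied most. Its probe set (Bt.6404.1.S1_at) read 944, 1931 and 886 in Japanese Black 1, 2 and 3 and 731, 1432 and 974 in Holstein 1, 2 and 3. Each breed had 1 animal well above its others, Japanese Black 2 and Holstein 2, and the highest animal read 2.64 times the lowest. The means were 1254 ± 587 (SD, n = 3) and 1046 ± 356 (SD, n = 3), so the SD of each breed was larger than the difference between their means. The log2 difference was 0.22 (SE 0.33, 95% interval -0.53 to 0.96), with an adjusted p of 0.789. It was -0.14 without Japanese Black 2 and -0.0081 without Holstein 1, so it had no stable direction.

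The genes with the profile nearest to that of KLF15 were sought among 8049 other named genes over the 6 arrays, by the root mean square difference of log2 values after each gene's own mean was removed. The nearest was FKBP5, a co-chaperone of the glucocorticoid receptor, at a root mean square of 0.12. The median over all these genes was 0.52. FKBP5 was dim and read 24.4, 46.9 and 19.2 in Japanese Black 1, 2 and 3 and 12.4, 37.1 and 23.9 in Holstein 1, 2 and 3, so Japanese Black 2 and Holstein 2 were the highest there too. Next came SLC43A2, an amino acid transporter, at 0.14, with signals of 1023, 1732 and 1053 in Japanese Black and 709, 1638 and 933 in Holstein. The third was SLC11A1, a metal transporter of phagocytes, at 0.15 and with dim signals of 9.32 to 34.3. The added 16 narrows the profile of a dim gene such as FKBP5 or SLC11A1, so their places in this ranking depend on it. A ranking without it was not made. Nearness over 6 arrays is a description, and the nearest of so many genes will lie close by choice.

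**Figure D4:**
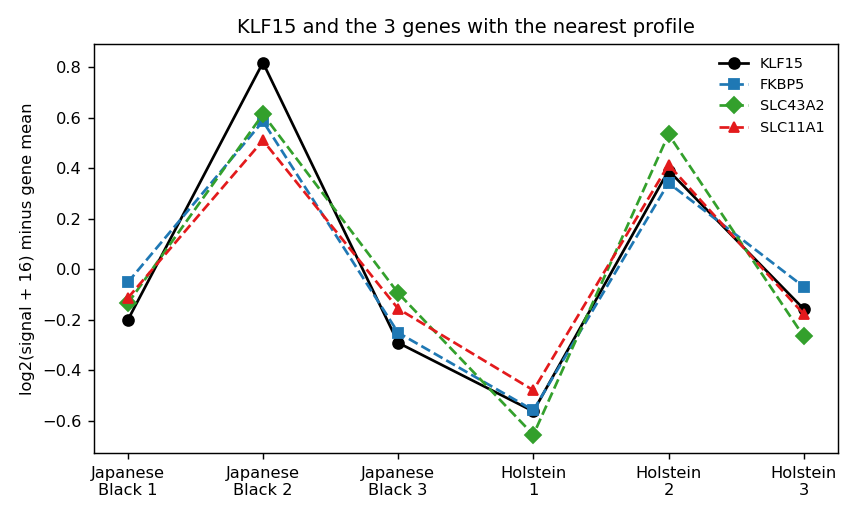
Log2(signal + 16) minus each gene's mean (vertical axis) in the 6 animals (horizontal axis) for KLF15 and the 3 named genes with the nearest profile, FKBP5, SLC43A2 and SLC11A1; lines only join the points of a gene, since animals have no order. All 4 genes are highest in Japanese Black 2 and Holstein 2 and lowest in Holstein 1.

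Genes that respond to glucocorticoids, as KLF15 does, showed no common breed difference. Of 17 listed, 11 were tested and 0 passed in either direction, with 6 higher and 5 lower in Japanese Black and a median of 0.08. SGK1, a kinase regulating ion transport, read 207, 354 and 399.98 in Japanese Black and 865, 593 and 1789 in Holstein. Its breeds did not overlap, with a difference of -1.61 (SE 0.39) and an adjusted p of 0.287. FBXO32, a ubiquitin ligase of muscle protein breakdown, read 2768, 4001 and 3734 in Japanese Black and 1184, 2779.6 and 1749 in Holstein, a difference of 0.94 (SE 0.28, adjusted p 0.321) with an overlap of Holstein 2 and Japanese Black 1. ERRFI1, a feedback inhibitor of the EGF receptor, had a difference of -0.44 and DDIT4, an inhibitor of mTOR signalling, one of -0.35.

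Amino acid breakdown and fuel use, which KLF15 controls in muscle, likewise had 0 genes past the adjusted threshold among 14 tested of 15 listed. There were 8 higher and 6 lower, with a median of 0.06. The smallest p was that of ACADM, which oxidises medium-chain fatty acids, with a difference of 0.50 (SE 0.17, adjusted p 0.347). GPT, an alanine aminotransferase, read 115, 126 and 124 in Japanese Black and 186, 139 and 169.9 in Holstein, a difference of -0.38 (adjusted p 0.394). HIBADH and DBT, enzymes of branched-chain amino acid breakdown, had differences of 0.35 and 0.59 with adjusted p-values of 0.405 and 0.459.

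KLF4 read 901, 1496 and 1318 in Japanese Black 1, 2 and 3 and 972, 1717 and 1554 in Holstein 1, 2 and 3 (Bt.1424.1.S1_at). The lowest animal of each breed, Japanese Black 1 and Holstein 1, stood well apart from its other animals, and the breeds overlapped. The means were 1238 ± 305 (SD, n = 3) and 1414 ± 392 (SD, n = 3), with a difference of -0.18 (SE 0.25, 95% interval -0.76 to 0.397) and an adjusted p of 0.779. Without Japanese Black 1 the difference was 0.030.

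KLF4 is known in endothelium, where flow induces it through MEF2 factors. Of 11 genes listed for that response, 7 were tested and 0 passed, with 2 higher and 5 lower in Japanese Black and a median of -0.39. THBD, the anticoagulant thrombomodulin, read 428, 271 and 436 in Japanese Black and 659, 532 and 645 in Holstein, without overlap, a difference of -0.69 (SE 0.21, adjusted p 0.321). MEF2A, a transcription factor of muscle and vessels, had a difference of 0.43, the clotting initiator F3 one of -0.62 and the vasoconstrictor EDN1 one of -0.39. Endothelial markers were lower in Japanese Black for 8 of 9 genes, with 0 past the threshold. Their summed signal was 2199 to 3274 in Japanese Black and 3068 to 3866 in Holstein, and no marker was at 0 in any animal. In a whole muscle sample fewer cells of a type and less RNA per cell cannot be told apart, and the part of vessel content in the KLF4 and THBD values was not tested.

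KLF5 had 2 probe sets that did not share a direction. The brighter (Bt.15802.1.S1_at) read 144, 152 and 222 in Japanese Black 1, 2 and 3 and 261, 125 and 165 in Holstein 1, 2 and 3. Holstein held both the highest and the lowest animal. The difference was -0.049 (SE 0.27, 95% interval -0.66 to 0.56), with an adjusted p of 0.951. The dimmer (Bt.15802.2.S1_at) read 65.7, 75.8 and 89.1 in Japanese Black and 84.8, 55.3 and 60.6 in Holstein, a difference of 0.17 (SE 0.19, 95% interval -0.26 to 0.60, adjusted p 0.712). At both, Japanese Black 3 and Holstein 1 were the 2 highest animals and Holstein 2 was the lowest, while Holstein 2 was the highest at the brighter KLF10 probe set.

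Genes of the fat cell programme, in which KLF4, KLF5 and KLF15 act, had 0 past the threshold among 6 tested of 8 listed, with 5 higher, 1 lower and a median of 0.10. LPL, the lipase that releases fatty acids from lipoproteins, read 1008, 1756 and 2083 in Japanese Black and 1317, 2683 and 297 in Holstein, a difference of 0.59 (SE 0.66, adjusted p 0.717). PPARG, the main regulator of fat cell formation, was dim at 28.02 to 113 and had a difference of 0.17. CEBPB, an early factor of that programme, and the retinoid receptor RXRA each had a difference of 0.10. The summed signal of 5 adipocyte markers was 2409.7, 2574 and 11491 in Japanese Black 1, 2 and 3 and 5724, 9113 and 1468 in Holstein 1, 2 and 3. Of the animals richest in adipocyte signal, Japanese Black 3 was among the 2 highest for KLF5 and Holstein 2 was the lowest.

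**Figure D5:**
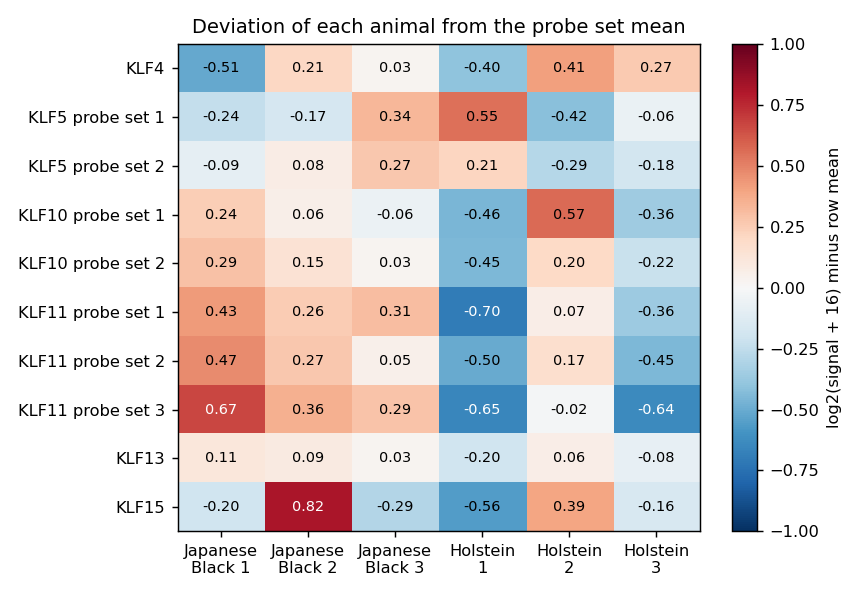
Log2(signal + 16) of each animal (columns) minus the mean of the 6 animals for each of the 10 Kruppel-like factor probe sets (rows), with the value printed in each cell. Holstein 1 has negative values in all rows except the KLF5 pair, and the widest deviation is 0.82 for KLF15 in Japanese Black 2.

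Across the family, single animals were placed alike at many probe sets. Holstein 1 was the lowest animal at 7 of 10 member probe sets and at 13.3% of all probe sets tested. By gene, at the brightest probe set, it was the lowest for 4 of 6: KLF10, KLF11, KLF13 and KLF15. Japanese Black 1 was the highest at 5 of 10 member probe sets, 3 of them for KLF11, and at 9.19% of all probe sets. By gene it was the highest for 2 of 6, KLF11 and KLF13, and the lowest for KLF4. Holstein 2 was also the highest for 2 of 6, KLF4 and KLF10. Japanese Black 3 was the highest at 31.4% of all probe sets tested but at 1 of the 10 member probe sets, the dimmer one of KLF5. Its array also had the highest upper quartile of signal, 205 against 172 to 181 on the other arrays. The main fit applied no normalization between arrays, and the part of array brightness in these orders was not tested. The probe sets of a gene share their target, so these counts are not independent.

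Proteins that work with the family were followed as well. Of 14 cofactors and ubiquitin ligases listed, 10 were tested and 0 passed, with 6 higher and 4 lower in Japanese Black and a median of 0.14. WWP1, a ubiquitin ligase that targets KLF2 and KLF5 for degradation, read 895, 1164 and 842 in Japanese Black and 725, 729 and 375 in Holstein. The breeds did not overlap, and the difference was 0.70 (SE 0.26, adjusted p 0.361). CTBP2, a corepressor bound by KLF3, read 1359, 1243 and 1578 in Japanese Black and 1232, 1032 and 1022 in Holstein, a difference of 0.34 (adjusted p 0.405), also without overlap. The histone deacetylase HDAC1 had a difference of -0.36 and the acetyltransferase CREBBP one of 0.29. Among 16 other Kruppel-like and SP factors sought, 1 was on the table, SP2, at a difference of -0.11 (adjusted p 0.795).

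Markers of skeletal muscle were bright in every animal, as the tissue label says. Of 10 such genes 8 had a probe set, and their summed signal was 98805 to 106842 in Japanese Black and 102609 to 104816 in Holstein. Of the 8, 4 were higher and 4 lower in Japanese Black, and 0 passed. The muscle creatine kinase CKM read 11917 to 12893 in Japanese Black and 13468 to 14562 in Holstein, a difference of -0.18 (adjusted p 0.434), and the skeletal muscle actin ACTA1 had a difference of 0.092 (adjusted p 0.637), each without overlap. Fibroblast markers were lower in Japanese Black for 5 of 6 genes, smooth muscle markers for 3 of 6 and leukocyte markers for 5 of 7, with 0 past the threshold in each list. The median signal of an array was 48.5 to 54.7, and 247 to 372 probe sets per array were listed at 0. With 3 animals per breed the number of arrays limits the precision.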

How the data were processed

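Muscle RNA of 6 steers was measured on 1 array each, and the deposited values are linear intensity units per probe set. The submitters' processing notes name GCOS 1.1.1 with Affymetrix Expression Console 1.1; summarising algorithm and scaling: not given in the sources used here. Breeds came from the labels. After 112 control probe sets were removed, log2(intensity + 16) was computed and the dimmest 25% of probe sets by mean were dropped, leaving 18012. The comparison used limma 3.58.1 (R 4.3.3; eBayes with an intensity trend, two-sided, Benjamini-Hochberg over all probe sets). A paired t-test is named in the series design; without named pairs the fit was unpaired. Platform annotation gave 13292 probe sets 1 symbol, 86 several and 10638 none. In lists a gene was represented by its brightest probe set, and at most 4 of a list, those of smallest p, are named in the results; further genes in the closing section were chosen after their values were seen; the 3 genes nearest in profile were named for the member with the widest range. Members and lists were chosen with earlier results of these data known.

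In a simulation of Japanese Black against Holstein with 18012 independent probe sets, limma found 1.40% of the true log2 changes of 0.5, 37.4% of those of 1 and 87.0% of those of 2. Alternatives were an offset of 1 or 64, a filter of 0 or 50%, quantile normalization, median centring, other variance models, a plain unpaired t-test and leaving out each animal. Figures were drawn with matplotlib 3.10.9.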

Additional observations from a re-analysis of the deposited data

How the results depend on the processing

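In the 150 alternative fits of member probe sets (15 settings for each of 10), 0 passed an adjusted p of 0.05, and 143 kept the direction of the main value. The 7 that did not were all fits without 1 animal, which could not change the direction at the 2 probe sets without overlap. Over those fits the difference ranged from -0.43 to 0.030 for KLF4, from -0.27 to 0.22 for the brighter KLF5 probe set, from -0.14 to 0.47 for KLF15 and from -0.027 to 0.49 for the brighter KLF10 probe set. The count of member probe sets at an unadjusted p under 0.05 was 2 to 5 without 1 animal, with 5 without Holstein 2, and 2 or 3 otherwise; over all probe sets that share was 14.6% without Holstein 2, 7.495% without Holstein 3 and 12.6% with all animals. Over all probe sets, the count past the adjusted threshold was 0 with an offset of 1, 0 with the dimmest 50% left out, 0 with the plain unpaired t-test and 10 with array weights; at an unadjusted p under 0.05 these settings gave 2221, 1653, 1806 and 2260, or 12.3%, 13.8%, 10.03% and 12.5% of those tested. Without 1 animal it was 0 to 15, with 15 without Holstein 2. The cause was not tested. No paired analysis was possible because no label names a pair of animals. With 3 animals per breed, 1.40% of simulated log2 changes of 0.5 were recovered, and 9 of the 10 member differences were below 0.7.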

Other observations

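The animals with the most KLF15 signal also led several genes that respond to glucocorticoids. This pattern was looked for after the values of KLF15 and FKBP5 had been seen, and it is a description without a test. Japanese Black 2 and Holstein 2 were the 2 highest animals for 5 of 11 tested genes of that list, FKBP5, CEBPD, PDK4, CDKN1A and ZBTB16. Without FKBP5, which prompted the search, it was 4 of 10. The same held for 272 of 8050 named genes at their brightest probe set, or 3.38%. CDKN1A, an inhibitor of the cell cycle, read 971, 3280.1 and 1178 in Japanese Black 1, 2 and 3 and 638, 2412 and 1134 in Holstein 1, 2 and 3. CEBPD, a transcription factor of stress and early fat cell formation, read 1395, 4671 and 1335 in Japanese Black and 1049.6, 3244 and 2894 in Holstein. PDK4, a kinase that restrains glucose oxidation, read 6888, 9045 and 8724 in Japanese Black and 3932, 10435 and 5104 in Holstein. Holstein 1, the lowest animal for KLF15, was the lowest for each of these 3 as well. The other genes did not share this order: 4 of the 11 were highest in Holstein 3, namely SGK1 at 1789, DUSP1 at 10111, DDIT4 at 7510.4 and ERRFI1 at 212.

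KLF4 and KLF10 are induced early in many stimulated cells, like FOS and JUN, but the animal with the most immediate early signal was not the animal with the most of either. The summed signal of 16 immediate early genes was 44827 in Holstein 3 and 21077 to 26645 in the other animals. Holstein 3 was the highest animal at 0 of the 10 member probe sets and at 24.3% of all probe sets tested. It read 1554 for KLF4, next to the highest of the 6 animals, and 2181 at the brighter KLF10 probe set, next to the lowest. Of the immediate early genes 14 were lower and 2 higher in Japanese Black, with a median difference of -0.36 and 0 past the adjusted threshold. IER3, a survival gene induced by stress, had a difference of -1.11 (adjusted p 0.313), the AP-1 subunit JUND one of -0.53, the nuclear receptor NR4A1 one of -0.49 and the AP-1 subunit FOSL2 one of -0.55.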
